A study of Homo sapiens with 12 samples.

Results

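The genes described here encode collagen chains of the fibroblast matrix and were taken as a list of 10 symbols: COL1A1, COL1A2, COL3A1, COL5A1, COL5A2, COL11A1, COL12A1, COL6A1, COL6A2 and COL6A3. They are 10 of the 38716 gene symbols in the tables, of which 16451 had at least 1 read in the coding sequence (CDS) in some library. The label of the group is fibrillar and type VI collagens, and 6 members are fibrillar chains and 3 are type VI chains. COL12A1 is neither, since type XII collagen is a fibril-associated collagen that decorates fibrils and does not form them. The rule names symbols and uses no measured value, but the list was drawn up with earlier results of these data known.

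Ribo-seq, which reads the stretches of mRNA that ribosomes shield from nuclease, and RNA-seq were run on IMR90 cells. These are primary human fibroblasts from normal fetal lung. Proliferating cells (Pro) were compared with cells passaged until they stopped dividing (Sen, replicative senescence), to ask how far changes in mRNA level and in translation shape the senescent program. The 4 groups held 3 libraries each: Ribo-seq of Pro, Ribo-seq of Sen, RNA-seq of Pro and RNA-seq of Sen, and each of the 6 lysates gave 1 library of either kind. All cultures grew in the same serum-containing medium and all lysates contained cycloheximide, which holds ribosomes on the mRNA. No genotype or drug differed between the groups by their labels, although the RNA-seq files of Pro carry a tag that looks like the name of the solvent DMSO, and whether DMSO was added is not known. Cells of more than 1 isolate of the line were grown and no sample is tied to an isolate, so isolate and state cannot be told apart.

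Collagens are secreted proteins whose chains share a repeat with glycine as the first of every 3 residues, which lets the chains wind into a triple helix. Fibrillar collagens assemble into the fibrils that give tissue its tensile strength, whereas type VI collagen forms a fine beaded network around cells. In lung, fibroblasts are the main source of both. Type I collagen is built from a pair of α1 chains (COL1A1) and a single α2 chain (COL1A2).

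Reads in mRNA regions numbered 7902427 to 14144455 per RNA-seq library, and reads in the CDS 54421 to 1718521 per Ribo-seq library. Ribo-seq libraries Pro 1 (54421) and Sen 2 (54708) were far shallower than the other 4, whose CDS reads numbered 583798 or more, and are called shallow below. Fibroblast markers were high in RNA-seq of both states, with the 8 markers summing to between 5389 and 5728 CPM (reads scaled to library size, as edgeR gives them) in Pro and between 6350 and 6516 CPM in Sen, most of it VIM. Of the 8, 4 were called higher and 3 lower in mRNA by the test given below. TWIST1 went from 28.2 to 10.8 CPM (-1.38, adjusted p = 2.92e-10), TWIST2 by -0.49 and PDGFRB by -0.34. The smooth muscle markers MYH11 and DES summed to between 76.9 and 84.1 CPM in Pro and between 58.7 and 71.8 CPM in Sen, and MYH11 went from 30.9 to 18.1 CPM (-0.77, adjusted p = 6.50e-07) without overlap. Epithelial markers (4 genes) summed to at most 1.79 CPM and endothelial markers (4 genes) to at most 1.03 CPM, with SFTPC and CDH5 at 0 in every library. The 4 immune markers summed to between 19.1 and 21.4 CPM in Pro and between 32.0 and 35.2 CPM in Sen, nearly all of it CD68, and CD3E was at 0. The part of these markers in the results below was not tested.

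The sequences that encode the start of the glycine repeat show what the chains have in common and how far they differ. Each line gives the first 30 bases of the longest unbroken repeat in the coding sequence of a member, 5′ to 3′, with glycine codons in capitals, read from the canonical GENCODE v44 transcripts lifted to GRCh37.
COL1A1: GGCcccatgGGTccctctGGTcctcgtGGT
COL1A2: GGAccaatgGGCttaatgGGAcctagaGGC
COL3A1: GGActcgcaGGCtatcctGGAccagctGGC
COL5A1: GGAccagctGGCccgatgGGTctcacaGGG
COL5A2: GGCtctgtgGGTcctgttGGCccaaggGGA
COL11A1: GGCccacctGGCccaatgGGTctaactGGA
COL12A1: GGAgagcaaGGTcgccaaGGGatgaaaGGT
COL6A1: GGAcctccgGGGctccggGGCgaccccGGC
COL6A2: GGGccctctGGCcccaagGGCtaccgtGGA
COL6A3: GGAcccaaaGGAgaaaccGGTgacctcGGC
The 6 fibrillar chains carried an unbroken run of 338 to 343 glycine triplets, which made up from 55.2% (COL5A1) to 74.5% (COL1A2) of their CDS. The run was 87 triplets long in COL6A1 and in COL6A2, 45 in COL6A3 and 32 in COL12A1. It began between codon 91 (COL1A2) and codon 559 (COL5A1) in the fibrillar chains, at codon 257 in COL6A1, 256 in COL6A2, 2168 in COL6A3 and 2803 in COL12A1. Glycine made up from 23.3% to 28.2% of the codons of the fibrillar chains, from 9.17% to 15.2% of those of the other 4, and a median of 6.36% over 18851 coding genes. In the RNA-seq and Ribo-seq tables the members were counted by symbol, and the build and strand rule of that counting are not given in the sources used here.

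Few exact 30-base windows of the CDS were shared between genes despite the common repeat, and shorter footprints or reads with mismatches were not checked. Of all such windows, 8 members shared none with another gene. COL1A1 shared 5 (0.115% of its windows) and COL1A2 shared 6 (0.147%), all with COL2A1, the type II collagen of cartilage, and 1 also between the type I chains. That window spans bases 4090 to 4119 of the COL1A1 CDS and bases 3796 to 3825 of the COL1A2 CDS, past the glycine repeat.
Shared window: cagaacatcacctaccactgcaagaacagc
At 50 bases no window was shared by any member. COL2A1 nonetheless had a mean RPF level of 82.3 CPM in Pro and 139.6 CPM in Sen. Every Sen library was above every Pro library, but the change of 0.23 ± 0.186 (SE) was not called (edgeR test given below, adjusted p = 0.336). Its mRNA did not pass the filter on low counts. Values of members are also not always whole (COL1A1 had 1021.67 CDS footprints in Pro 1). How reads with several placements were counted, and how many footprints of the members that touched, was not tested. Exons of COL1A1 and COL5A1 overlap those of another annotated gene (ENSG00000249406 and ENSG00000286502), and reads from the overlap cannot be told apart without strand.

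On GRCh37 the fibrillar genes lie on several chromosomes. COL1A1 is at chr17:48261462-48278993 on the minus strand with 51 exons, and COL1A2 at chr7:94024207-94060539 on the plus strand with 52 exons. COL3A1 (chr2:189839099-189877472, plus) and COL5A2 (chr2:189896624-190090038, minus) are neighbours with 19151 bases between them. COL5A1 is at chr9:137533649-137736689 (plus), COL11A1 at chr1:103342023-103574428 (minus) and COL12A1 at chr6:75794042-75915983 (minus). COL6A1 (chr21:47401684-47424964, plus) and COL6A2 (chr21:47518026-47552762, plus) lie in a row with 93061 bases between them, and COL6A3 is at chr2:238232646-238322971 (minus).

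The 10 genes took a smaller share of CDS footprints in Sen. Their share of all CDS footprints in Pro was 5.09% for replicate 1 (95% Wilson interval, 4.90 to 5.27), 5.23% for replicate 2 (5.18 to 5.28) and 4.93% for replicate 3 (4.90 to 4.97). In Sen they held 4.0% in replicate 1 (3.98 to 4.03), 3.72% in replicate 2 (3.56 to 3.88) and 3.0% in replicate 3 (2.96 to 3.05). Every Pro library was above every Sen library, with means of 5.08% ± 0.148 (SD, n = 3) and 3.57% ± 0.517 (SD, n = 3), a ratio of 0.703. Intervals cover counting error only, and no test was made on a sum over chosen genes. With all assigned reads as the denominator, non-coding classes included, the means were 3.51% ± 1.53 and 1.77% ± 1.28 and the groups overlapped. A share scales by library totals. Scaled so, the median log2 ratio of Sen to Pro over all genes tested was -0.14 in footprints and -0.11 in mRNA.

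In RNA-seq the same genes held 3.16%, 3.58% and 3.74% of mRNA reads in Pro and 2.93%, 2.52% and 3.02% in Sen. These groups did not overlap either, although Pro 1 and Sen 3 were close. The means were 3.49% ± 0.296 and 2.82% ± 0.262 (SD, n = 3), a ratio of 0.808.

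Type VI collagen had the lowest ratio of Sen to Pro shares, 0.552 in footprints and 0.563 in mRNA. COL6A1, COL6A2 and COL6A3 together took 1.17% ± 0.0395 of CDS footprints in Pro and 0.648% ± 0.0243 in Sen (SD, n = 3), and 0.768% ± 0.0755 of mRNA reads in Pro and 0.432% ± 0.0514 in Sen. Neither pair of groups overlapped. The type I chains took 3.06% ± 0.129 of CDS footprints in Pro and 2.33% ± 0.453 in Sen without overlap, while their mRNA shares of 2.26% ± 0.172 and 2.03% ± 0.173 overlapped. The other 5 chains took 0.847% ± 0.0570 and 0.593% ± 0.0594 of CDS footprints, also without overlap. With the TMM scaling of the tests below, the footprint groups overlapped for COL1A1 and for COL1A2. By that scaling COL1A1 in Sen 1 was above every Pro library. The plot of shares by library shows that the type I chains were the largest block in all 12 libraries.

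**Figure D1:**
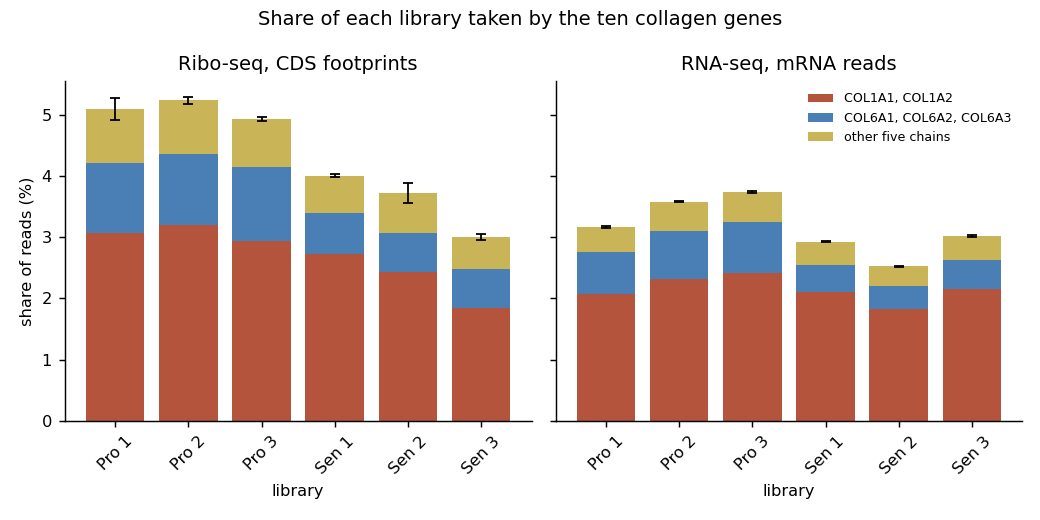
Share of all CDS footprints (left, %) and of all mRNA reads (right, %) taken by the collagen genes in each library, stacked by type I chains, type VI chains and the other 5 chains, with error bars giving the 95% Wilson interval of the sum. Footprint shares lie between 4.93% and 5.23% in the Pro libraries and between 3.0% and 4.0% in the Sen libraries.

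Member by member, mRNA and ribosome-protected fragments (RPF, the CDS footprints of a gene) were compared with the quasi-likelihood test of edgeR over all genes, and a gene was called at a Benjamini-Hochberg adjusted p under 0.15, the false discovery rate of the study's methods. Levels are CPM with TMM scaling, and changes are log2 ratios of Sen to Pro with their standard error (SE). In mRNA, 8 of the 10 members were called, 3 higher and 5 lower, against 73.6% of 12790 genes tested (36.6% higher, 37% lower). The 3 and 3 libraries did not overlap for those 8 members, against 67.8% of genes. In RPF, 7 members were called, 1 higher and 6 lower, against 54.3% of 7562 genes tested (27.7% higher, 26.6% lower). The groups did not overlap for 4 members, all lower, against 32.7% of genes. The median change of the members was -0.33 in mRNA and -0.44 in RPF, and that of all genes tested was -0.0059 and 0.0055. All 10 members passed the filter on low counts in both layers. Within a bulk sample, fewer cells making a transcript and less transcript per cell cannot be told apart.

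**Figure D2:**
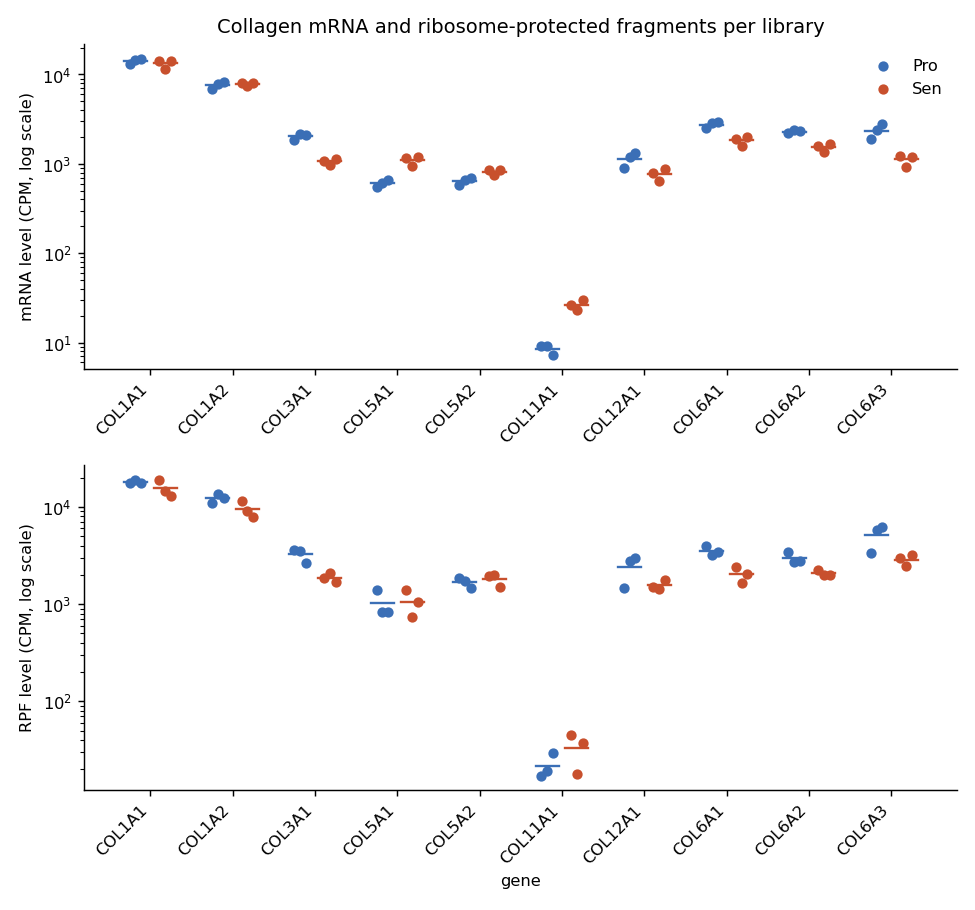
Levels of the collagen genes in each library as CPM on log axes, mRNA above and RPF below, with Pro in blue, Sen in red, points for libraries in the order of their replicate numbers and a line at the mean of 3. COL11A1 lies far below the others in both panels, and the type VI genes are lower in all Sen libraries than in all Pro libraries in both panels.

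Type I collagen, the bulk of the fibrils, stood at the top of the transcriptome in both states. COL1A1 had 13047, 14618 and 14990 CPM of mRNA in Pro and 14063, 11540 and 14235 CPM in Sen. The groups overlapped, and the change of -0.10 ± 0.088 (SE) was not called (adjusted p = 0.335). By CPM it ranked 3 among all genes in Pro and 1 in Sen for mRNA, and 1 in both states for RPF, while COL1A2 went from 4 to 3 in mRNA and from 2 to 5 in RPF. Its RPF level was 17601, 18759 and 17498 CPM in Pro and 19048, 14544 and 12961 CPM in Sen. Sen 1 was above every Pro library and the other Sen libraries below them, so that the change of -0.21 ± 0.205 (SE) was not called (adjusted p = 0.431). Scaled by library totals in place of TMM, COL1A1 was called lower in both layers, at -0.20 in mRNA (adjusted p = 0.0423) and -0.33 in RPF (adjusted p = 0.0519), a scaling that moved the median of all genes to -0.11 and -0.14. Without Sen 3 the mRNA change was -0.16 and was also called (adjusted p = 0.0917).

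COL1A2, the partner chain, had 6943, 7824 and 8159 CPM of mRNA in Pro and 7951, 7406 and 7939 CPM in Sen. The groups overlapped and the change was 0.023 ± 0.079 (SE, adjusted p = 0.813), with a negative sign under library totals (-0.083). Its RPF level was 11091, 13495 and 12400 CPM in Pro and 11413, 9020 and 7944 CPM in Sen. Sen 1 lay within the Pro range and the other Sen libraries below it. RPF fell by 0.38 on the log2 scale (SE 0.197, adjusted p = 0.113), a call that was lost without Pro 2 (adjusted p = 0.359), without Pro 3 (0.324) and without Sen 3 (0.429). The 5 genes outside the list with mRNA profiles most like COL1A1 over the 6 RNA-seq libraries, by Pearson r of log2 CPM and with no test, were GCN1 (0.993), AP5S1 (0.986), PDIK1L (0.978), PDCD7 (0.975) and APOLD1 (0.970). None of the 5 was called in mRNA.

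Type III collagen, which forms thin fibrils with type I, fell in both layers. COL3A1 mRNA was 1859, 2174 and 2085 CPM in Pro and 1090, 979 and 1137 CPM in Sen. All Sen libraries were below all Pro libraries, and the change was -0.93 ± 0.080 (SE, adjusted p = 1.30e-09), 1.91-fold lower. RPF was 3582, 3513 and 2654 CPM in Pro and 1876, 2065 and 1670 CPM in Sen, again without overlap. It fell by 0.80 on the log2 scale (SE 0.178, adjusted p = 0.000214), 1.74-fold. In the order of all genes by mRNA CPM, COL3A1 went from rank 32 in Pro to rank 104 in Sen.

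The type V and XI chains, which sit inside type I fibrils and limit their width, went the other way in mRNA. COL5A1 had 552, 619 and 662 CPM in Pro and 1177, 939 and 1203 CPM in Sen. Every Sen library was higher, and the change was 0.86 ± 0.090 (SE, adjusted p = 3.18e-08), 1.81-fold. COL5A2 mRNA was 584, 666 and 688 CPM in Pro and 844, 758 and 851 CPM in Sen. It also rose without overlap, by 0.34 ± 0.078 (SE, adjusted p = 0.000652), 1.26-fold.

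Footprints of the type V chains were not called with all libraries. COL5A1 RPF was 1395, 832 and 820 CPM in Pro and 1389, 741 and 1047 CPM in Sen. The highest value came from the shallow library Pro 1 with 81 reads and the lowest from the shallow library Sen 2 with 42 reads, and the groups overlapped. The change was 0.29 ± 0.182 (SE) and was not called (adjusted p = 0.196). It was called without Pro 1 (0.42, adjusted p = 0.0112), without Sen 2 (0.43, adjusted p = 0.0331) and without both (0.57, adjusted p = 0.000653). Without Sen 1 it was -0.0026 (adjusted p = 0.997). COL5A2 RPF was 1843, 1716 and 1453 CPM in Pro and 1946, 1995 and 1514 CPM in Sen. These groups overlapped, and the change of 0.13 ± 0.172 (SE) was not called (adjusted p = 0.563).

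COL11A1, a minor fibrillar chain better known from cartilage, was scarce. Its mRNA was 9.15, 9.23 and 7.35 CPM in Pro and 26.6, 23.3 and 30.2 CPM in Sen. The groups were far apart, and mRNA rose by 1.63 ± 0.126 (SE, adjusted p = 2.10e-10), 3.10-fold, which moved its rank from 9773 to 6344. Its footprints numbered 1, 13 and 49 reads in Pro and 67, 1 and 19 reads in Sen. Both shallow libraries held 1 read after rounding, under a floor of 3 counts, and the value of Pro 1 before rounding was 0.5. RPF of COL11A1 was called higher at 0.69 ± 0.293 (SE, adjusted p = 0.0512) with overlapping groups. The call was lost in DESeq2 (adjusted p = 0.657), without Pro 2 (0.241) and without Sen 1 (0.528), and held without both shallow libraries (0.71, adjusted p = 0.0427).

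COL12A1, the fibril-associated chain, fell. Its mRNA was 894, 1190 and 1321 CPM in Pro and 794, 643 and 880 CPM in Sen. Pro 1 was just above Sen 3, so that the groups did not overlap, and the change was -0.56 ± 0.114 (SE, adjusted p = 0.000209). RPF was 1464, 2778 and 3011 CPM in Pro and 1514, 1430 and 1752 CPM in Sen. The shallow library Pro 1 with 85 reads lay among the Sen libraries. RPF fell by 0.68 on the log2 scale (SE 0.184, adjusted p = 0.00232). The call was lost without Pro 3 (-0.48, adjusted p = 0.15) and the change was -0.84 without both shallow libraries (adjusted p = 1.18e-06).

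The type VI genes, whose products join as 3 different chains in a monomer, fell in both layers without overlap of the groups in any. COL6A1 mRNA was 2522, 2842 and 2903 CPM in Pro and 1888, 1604 and 2007 CPM in Sen, a change of -0.59 ± 0.086 (SE, adjusted p = 3.23e-06). COL6A2 mRNA was 2198, 2366 and 2339 CPM in Pro and 1603, 1354 and 1656 CPM in Sen, a change of -0.58 ± 0.081 (SE, adjusted p = 1.70e-06). COL6A3 encodes the longest type VI chain and had the most negative mRNA change of the 10 members. Its mRNA was 1892, 2418 and 2774 CPM in Pro and 1241, 921 and 1206 CPM in Sen, a change of -1.07 ± 0.115 (SE, adjusted p = 3.91e-08), 2.10-fold lower.

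In RPF, COL6A1 had 3927, 3234 and 3403 CPM in Pro and 2391, 1642 and 2050 CPM in Sen. It fell by 0.74 on the log2 scale (SE 0.177, adjusted p = 0.000546). COL6A2 RPF was 3444, 2731 and 2804 CPM in Pro and 2218, 1995 and 2002 CPM in Sen, a fall of 0.50 on that scale (SE 0.173, adjusted p = 0.0167). The lowest Pro library was above the highest Sen library for both genes. COL6A3 RPF was 3341, 5784 and 6210 CPM in Pro and 2951, 2471 and 3177 CPM in Sen. The shallow library Pro 1 was again closest to Sen, and the change was -0.85 ± 0.190 (SE, adjusted p = 0.000262) with all libraries and -0.98 without the shallow ones (adjusted p = 4.24e-08).

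**Figure D3:**
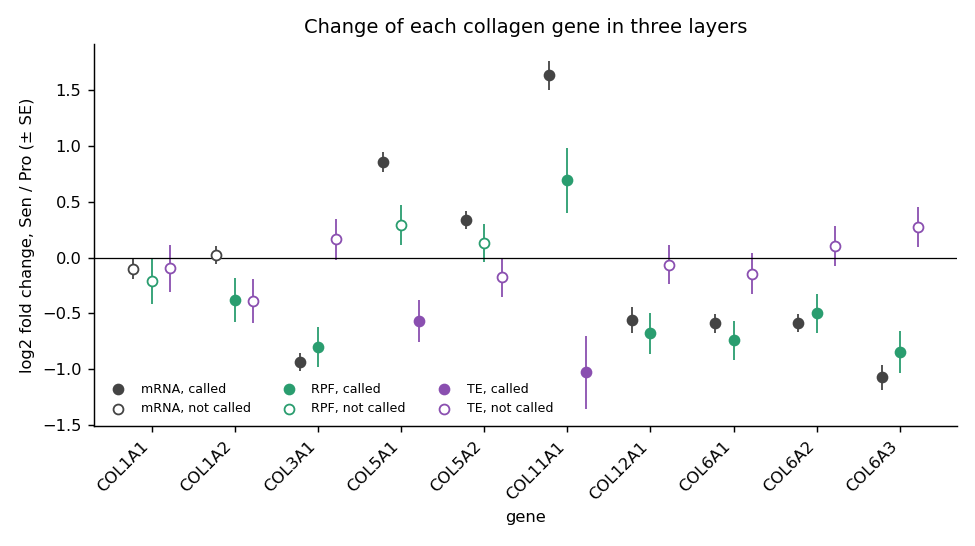
Log2 change of each collagen gene from Pro to Sen in mRNA, RPF and translational efficiency (TE), with bars of 1 SE, filled points where the change was called at an adjusted p under 0.15 and open points where it was not. In mRNA the changes run from -1.07 (COL6A3) to 1.63 (COL11A1), and in TE the only filled points are those of COL5A1 (-0.57) and COL11A1 (-1.03).

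Per kilobase of transcript the mRNA levels in Pro ran from COL1A1 with 2404 ± 174 CPM per kb (SD, n = 3) through COL1A2 (1507 ± 124), COL6A2 (668 ± 26.2), COL6A1 (656 ± 48.7), COL3A1 (371 ± 29.6), COL6A3 (224 ± 42.1), COL12A1 (96.8 ± 18.7), COL5A2 (94.6 ± 8.08) and COL5A1 (72.4 ± 6.58) to COL11A1 (1.17 ± 0.145). The neighbours COL6A2 and COL6A1, and COL12A1 and COL5A2, lay within 1 SD of each other. In Sen the order below COL3A1 (195 ± 14.8) changed, with COL5A1 (131 ± 17.2), COL5A2 (120 ± 7.61) and COL6A3 (107 ± 16.7) above COL12A1 (65.9 ± 10.2). These 3 lay within the sum of their SDs, and COL11A1 stayed last at 3.65 ± 0.469 CPM per kb.

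TE, the log2 ratio of RPF CPM to mRNA CPM in a lysate, asks whether footprints changed beyond the mRNA. It was tested as the interaction of library type and state in edgeR over all 12 libraries, with the lysate as a block. TE was called for 2 of the 10 members, both lower, against 10.2% of 7512 genes tested (6.4% higher, 3.78% lower). The groups did not overlap for 3 members, COL1A2, COL5A1 and COL11A1, all lower in Sen, against 16.3% of genes (7.95% higher, 8.31% lower). The median TE change of the members was -0.12 and that of all genes tested 0.027.

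Both called genes were among those whose mRNA rose. TE of COL5A1 was 1.35, 0.43 and 0.31 in Pro and 0.24, -0.32 and -0.20 in Sen, on the log2 scale. All Sen lysates were lower, the nearest being Pro 3 and Sen 1, and the highest was the shallow lysate Pro 1. The change was -0.57 ± 0.189 (SE, adjusted p = 0.0800), and without both shallow lysates it was -0.31 and was not called (adjusted p = 0.207). The call was also lost without Pro 2 (adjusted p = 0.210), Sen 2 (0.156) or Sen 3 (0.375), and with no lysate block (-0.45, adjusted p = 0.163). TE of COL11A1 was 1.49, 1.10 and 1.99 in Pro and 0.76, 0.18 and 0.33 in Sen. The change of -1.03 ± 0.327 (SE, adjusted p = 0.0630) rested on 1 to 67 footprints a library, counted after rounding. It was -1.04 without the shallow lysates (adjusted p = 0.0675). It was not called without Pro 3 (-0.42, adjusted p = 0.817), Sen 1 (-1.36, adjusted p = 0.190) or Sen 3 (-0.91, adjusted p = 0.345). Neither gene was called by DESeq2 (adjusted p = 0.999 for both).

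For COL1A2, TE was 0.68, 0.79 and 0.60 in Pro and 0.52, 0.29 and 0.0012 in Sen. The groups did not overlap, but the change of -0.39 ± 0.199 (SE) missed the threshold (adjusted p = 0.285). It passed without Pro 1 (adjusted p = 0.148) and without both shallow lysates (-0.41, adjusted p = 0.105). The TE changes of the other 7 members lay between -0.18 (COL5A2) and 0.28 (COL6A3), with adjusted p from 0.424 to 0.884. The RPF falls of COL3A1, COL12A1 and the type VI genes therefore came with mRNA falls and no called difference between the layers.

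Within a state, members differed in TE when both layers were counted over the CDS. Among all genes tested, COL5A2 stood at the 88.4 percentile in Pro and the 81.2 percentile in Sen, COL12A1 at 81.1 and 81.2, and COL6A3 at 75.8 and 86.6. COL1A1 stood lower, at 35.2 and 30.8, and COL6A2 at 37 and 39.2. COL5A1 went from the 70.2 to the 30.6 percentile and COL11A1 from 90.0 to 42.5. These ranks are a description, and the SD over 3 lysates was 0.56 for COL5A1 in Pro. They rest on means that weigh the shallow lysates Pro 1 and Sen 2 like the others. COL11A1 had 1 footprint after rounding in each of those lysates.

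Chains that assemble together were then compared within each library, as a ratio of reads scaled by length, which needs no scaling between libraries. For mRNA the reads were divided by transcript length and for RPF by CDS length. The ratio of COL1A2 to COL1A1 was 0.621, 0.624 and 0.635 in mRNA of Pro and 0.659, 0.748 and 0.650 in Sen. In RPF it was 0.675, 0.771 and 0.760 in Pro and 0.642, 0.665 and 0.657 in Sen. The ratio was higher in Sen in mRNA and lower in RPF, without overlap in either layer (exact permutation test, two-sided, p = 0.1 for each, the smallest that 3 against 3 allows, and 0.16 after Benjamini-Hochberg adjustment over 8 tests). No ratio could therefore pass a threshold of 0.05. The log2 difference in mRNA was 0.13 with all libraries and 0.064 without Sen 2.

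The ratio of COL5A2 to COL5A1 in mRNA fell from 1.31 ± 0.0225 in Pro to 0.920 ± 0.0676 in Sen (SD, n = 3), with no overlap (exact permutation p = 0.1). In RPF it was 1.62, 2.53 and 2.17 in Pro and 1.72, 3.30 and 1.77 in Sen. These groups overlapped (exact permutation p = 0.8), and the value of 3.30 came from the shallow library Sen 2.

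Among type VI chains, COL6A2 to COL6A1 stayed near even in mRNA, at 1.02 ± 0.0404 in Pro and 1.02 ± 0.0154 in Sen (SD, n = 3, exact permutation p = 1). In RPF it was 0.885, 0.852 and 0.831 in Pro and 0.936, 1.23 and 0.985 in Sen, higher in every Sen library (exact permutation p = 0.1). The highest value came from the shallow library Sen 2, with 113 and 93 reads, and the log2 difference of 0.28 was 0.17 without it. The ratio of COL6A3 to COL6A1 in mRNA was 0.340 ± 0.0410 in Pro and 0.244 ± 0.0170 in Sen, lower in every Sen library (exact permutation p = 0.1). In RPF it was 0.275, 0.579 and 0.590 in Pro and 0.399, 0.487 and 0.501 in Sen. The shallow library Pro 1 had the lowest value of all 6 and the other Pro libraries the highest (exact permutation p = 1), and the direction turned without Pro 1 (a log2 difference of -0.34), Sen 2 (-0.023) or Sen 3 (-0.044).

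**Figure D4:**
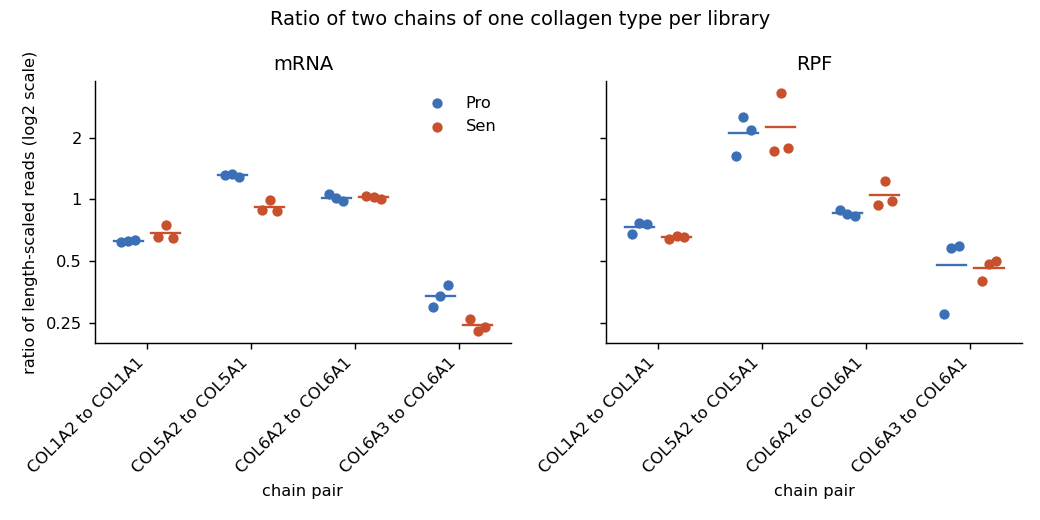
Ratio of length-scaled reads of 2 chains of the same collagen type in each library, on a log2 axis, for mRNA (left) and RPF (right), with Pro in blue, Sen in red and lines at the mean of 3. COL5A2 to COL5A1 in mRNA is 1.29 to 1.33 in Pro and 0.875 to 0.997 in Sen, and in RPF the groups overlap.

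Footprints outside the CDS were few in these genes. The share of a gene's mRNA-region footprints that fell in the 5′ UTR was lower in all Sen than in all Pro libraries for 3 of the 8 members with at least 20 such footprints, against 23.3% of 964 genes, and higher for none, against 1.24%. COL3A1 had 2.81%, 2.90% and 2.46% of its footprints there in Pro and 0.778%, 0.844% and 0.464% in Sen. In Pro this rested on 190 reads and in Sen on 27. COL1A2 had 2.56%, 1.60% and 2.14% in Pro and 1.5%, 1.34% and 0.391% in Sen, and COL5A2 had 0.917%, 1.11% and 1.57% in Pro and 0.512%, 0.855% and 0.128% in Sen. COL1A1 had the most 5′ UTR footprints, 1142 in Pro and 1080 in Sen, and its shares overlapped (2.01% to 2.63% and 1.19% to 3.28%).

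Whole libraries also differed in their 5′ UTR footprints. The median 5′ UTR share of a gene was taken over the 964 genes with at least 20 such footprints. It was 5.20%, 7.69% and 7.23% in Pro and 5.30%, 0% and 1.59% in Sen. In Sen 2 and Sen 3, 98.1% and 94.6% of all 5′ UTR footprints came from 5 genes, against 20.6% to 65.5% in the other 4 libraries. Sen 1 was close to Pro 1 in both measures. With those 5 genes left out, the 5′ UTR share of all mRNA-region footprints was 3.96%, 2.6% and 2.22% in Pro. In Sen it was 1.74%, 1.53% and 0.850%, so that every Sen library, Sen 1 included, was below every Pro library. The part of these library differences in the collagen values was not tested.

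**Figure D5:**
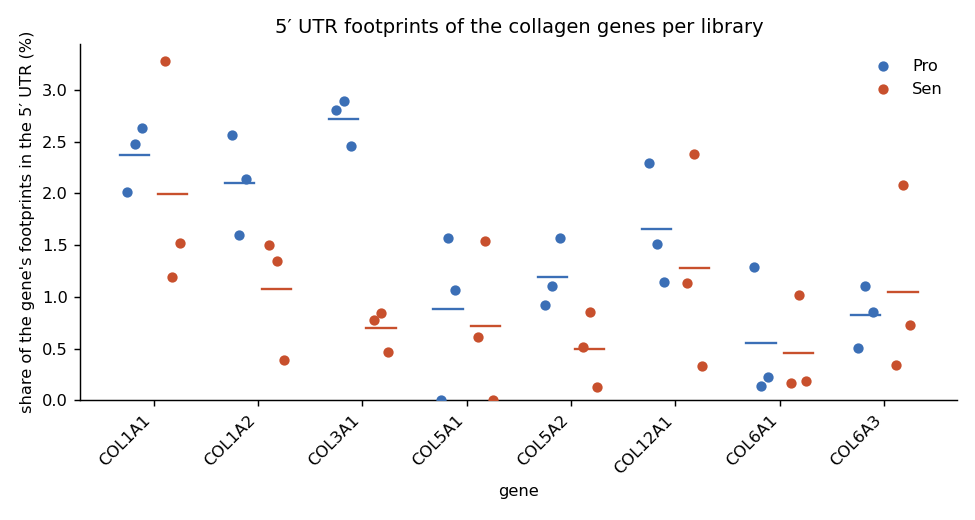
Share of each gene's mRNA-region footprints that fell in its 5′ UTR (%), per Ribo-seq library, for the 8 members with at least 20 such footprints, with Pro in blue, Sen in red and lines at the mean of 3. The groups are apart for COL1A2, COL3A1 and COL5A2 and overlap for the other 5.

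Genes that make, finish, bind or break down collagen were described from fixed lists beside the members. Of 20 genes that fold or modify collagen, 13 were higher and 2 lower in mRNA (median 0.25), against 36.6% and 37% of all genes. Of the 18 tested in RPF, 14 were higher and none lower (median 0.54), against 27.7% and 26.6%. The RPF groups of those 14 overlapped for all but P3H2, PLOD1, PLOD2, P4HA2 and P4HB. Over all genes, 17.2% were higher in RPF without overlap. LARP6 was among the 14, at 0.53, although its mean RPF level was 57.9 CPM in Pro and 56.6 CPM in Sen. Over all the lists of other genes, RPF calls numbered 35 in edgeR and 22 in DESeq2. The hydroxylases led: P3H2 (prolyl 3-hydroxylase) rose by 1.98 ± 0.074 in mRNA and 2.08 ± 0.170 in RPF, PLOD2 (lysyl hydroxylase) by 1.78 and 1.3, and P4HA2 (prolyl 4-hydroxylase) by 1.47 and 1.55, all with an adjusted p of 4.16e-09 or less. SERPINH1, the chaperone HSP47 that binds folded procollagen, fell in mRNA by 0.89 on the log2 scale (adjusted p = 5.84e-10), while its RPF change of -0.23 was not called (adjusted p = 0.286). Its TE was called higher by 0.70 (SE 0.171, adjusted p = 0.0102), a call not made in DESeq2, which called no gene of these lists in TE.

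Of 13 genes for procollagen processing and cross-linking, 11 were tested in mRNA, with 6 higher and 5 lower, and 8 in RPF, with 3 higher and 1 lower. Over all genes tested the shares were 36.6% and 37% in mRNA and 27.7% and 26.6% in RPF. The cross-linking enzymes LOX and LOXL2 rose in mRNA by 1.07 and 0.62 and in RPF by 0.96 and 1.02. PCOLCE, an enhancer of C-propeptide cleavage, fell by 2.30 on the log2 scale in mRNA and by 2.0 in RPF (adjusted p = 1.50e-16 and 6.15e-13). ADAMTS2, an N-propeptidase, fell in mRNA by 0.59 on that scale (adjusted p = 9.85e-07), and its RPF change of -0.25 was not called.

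Of 9 genes for collagen breakdown, 6 were tested in mRNA, with 4 higher and 1 lower (over all genes, 36.6% and 37%), and 5 in RPF, with 2 higher and 1 lower (27.7% and 26.6%). MMP14, a membrane-bound collagenase, rose by 0.35 in mRNA and 0.59 in RPF (adjusted p = 0.000261 and 0.00215), and MMP2, a gelatinase, fell by 0.85 and 0.53 on the log2 scale (adjusted p = 4.48e-10 and 0.00687). The RPF groups of MMP2 overlapped. Among 7 collagen receptors, 5 of the 6 tested rose in mRNA and none fell (over all genes, 36.6% and 37%), and 3 of 6 rose in RPF and none fell (27.7% and 26.6%). ITGA2, the α2 integrin subunit, rose most in mRNA, by 1.33, and by 1.19 in RPF. ITGB1 and ITGA1 rose in mRNA by 0.52 and 0.51, and their RPF changes of 0.22 and -0.025 were not called. Of 10 fibril partners, 8 were tested in mRNA, with 4 higher and 4 lower (over all genes, 36.6% and 37%), and 7 in RPF, with 3 higher and 3 lower (27.7% and 26.6%). SPARC and THBS1, which bind collagen outside the cell, rose by 0.91 and 1.47 in mRNA, whereas the proteoglycan BGN and the fibulin FBLN1 fell by 1.70 and 1.53 on the log2 scale.

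Among 34 further collagen chains, 16 were tested in mRNA, with 8 higher and 6 lower (over all genes, 36.6% and 37%), and 11 in RPF, with 2 higher and 3 lower (27.7% and 26.6%). COL8A1, a network-forming chain, rose from 185 to 487 CPM of mRNA (1.40 ± 0.076) and by 0.99 in RPF. COL15A1, a chain found near basement membranes, fell from 199 to 29.8 CPM of mRNA, with changes of -2.75 in mRNA and -2.75 in RPF. COL14A1, fibril-associated like COL12A1, fell from 29.6 to 3.84 CPM of mRNA, and its RPF fell by 2.64 on the log2 scale (adjusted p = 1.42e-10). Its RPF groups overlapped, with means of 62.3 CPM in Pro and 15.5 CPM in Sen.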

How the data were processed

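Ribo-seq and RNA-seq of 6 IMR90 lysates gave 12 libraries. Groups and replicate numbers came from the sample labels, and libraries of 1 state and number were taken as 1 lysate because the protocol took RNA from part of each lysate. The tables deposited by the authors give, per gene symbol, expected counts of reads in each region (5′ UTR, CDS, 3′ UTR and non-coding classes), with no scaling to depth. From 12.1% to 22.7% of nonzero CDS values in Ribo-seq were not whole. The tests had been planned for counts, so values were rounded after regions were summed. The submitters' processing notes name cutadapt 1.18, Bowtie 1.0.1, SAMtools 1.8 and DESeq2 1.22.2, without roles. The build, the strand rule and the handling of reads with several placements are not given in the sources used here.

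RPF was the CDS count in Ribo-seq and mRNA the sum of 5′ UTR, CDS and 3′ UTR counts in RNA-seq. Symbols without a CDS read were dropped. Genes were tested with edgeR 4.0.16 in R 4.3.3 (filterByExpr, TMM within a library type, quasi-likelihood test, two-sided, Benjamini-Hochberg over all genes, called under 0.15). TE per lysate added 0.5 to each count. Alternatives used DESeq2 1.42.0, limma 3.58.1, other scalings, filters and thresholds, and left out replicates. Chain ratios used the exact permutation test of scipy 1.17.1. The fits were tested on simulated data. Chi-square tests found no duplicate among libraries of the same state, with 1.29 to 9.79 per degree of freedom. The labels call the 3 samples of a state independent replicas and tie none to a donor, so p-values measure the spread between these cultures.

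The members, the lists of other collagen genes and the markers were chosen with earlier results of these data known. Named were all members, the 5 genes most like COL1A1, and from each list called genes without overlap, at most the 3 highest and 3 lowest in mRNA. Not every gene picked is given by name. Markers are also named, and COL2A1 was named after its values were seen.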

Additional observations from a re-analysis of the deposited data

Results flagged for a closer look

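COL12A1 had footprints in its 3′ UTR, a region the comparisons do not use, at a higher share in every Sen library than in every Pro library. In Pro 0%, 0.0523% and 0.0584% of its mRNA-region footprints lay there for replicates 1, 2 and 3. The Sen values were 0.174%, 1.19% and 0.442% in the same order, with a mean of 0.602%. The reads numbered 0, 1 and 3 for Pro, and for Sen 4, 1 and 4, and 1 read is under the floor of 3 counts. Over whole libraries the 3′ UTR share of mRNA-region footprints was 12.4%, 1.94% and 1.4% in Pro and 3.51%, 14.8% and 4.9% in Sen, highest in Sen 2 as for COL12A1. The difference was not tested, nor was the part of these library shares in it. Of the 10 members, only COL12A1 had every Sen library above every Pro library in this share. How many of all genes do was not counted.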

How the results depend on the processing

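Mean footprint share of the 10 genes was 3.51% in Pro and 1.77% in Sen over all assigned reads, and 5.24% in Pro over CDS reads of genes kept by the filter. Counted over the CDS, their mRNA share was 4.86% in Pro and 4.0% in Sen. Higher calls in RPF among the members, 1 with all libraries, numbered 0 in DESeq2, with the replicate block and at an adjusted p under 0.05, 2 without both shallow libraries and 0 to 2 when 1 replicate was left out. Lower RPF calls among the members, 6 with all libraries, numbered 5 with a filter of 1 read, with the block and at 0.05. Under library totals 7 members were called lower in RPF, and 4 to 6 when 1 replicate was left out. Their lower calls in TE, 2 with all lysates, numbered 0 in DESeq2, under partial variance (RPF regressed on mRNA and state with limma) and at an adjusted p under 0.05, 1 with no replicate block and 0 to 3 without 1 lysate. Calls in the other matrix lists were 35 in RPF and 10 in TE, against 22 and 0 in DESeq2 and 3 in TE at an adjusted p under 0.05. No alternative changed the mRNA calls of the 8 called members.

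Reversed signs were all in values that were not called. COL1A2 mRNA was -0.083 under library totals and between -0.044 and 0.070 without 1 replicate, and COL5A1 RPF between -0.0026 and 0.43. Under partial variance TE was -1.73 for COL3A1, 0.51 for COL5A2, 0.25 for COL12A1 and -0.67 for COL6A2, and it was 0.0033 for COL6A1 without both shallow lysates. Leaving out 1 lysate gave TE from -0.23 to 0.048 for COL1A1 and from -0.24 to 0.043 for COL12A1. The log2 difference of the chain ratios ran from -0.021 to 0.036 for COL6A2 to COL6A1 in mRNA, from -0.25 to 0.22 for COL5A2 to COL5A1 in RPF and from -0.34 to 0.21 for COL6A3 to COL6A1 in RPF.

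Over all genes, RPF calls fell from 4106 to 1157 in DESeq2 and to 2400 with the replicate block, and ranged from 2705 to 4593 without 1 replicate, lowest without Sen 1. TE calls fell from 765 to 428 with a filter of 1 read, 248 at 0.05, 27 in DESeq2 and 0 under partial variance in limma (494 at an unadjusted p under 0.05), rose to 1358 with no replicate block and ranged from 134 to 1117 without 1 lysate. Library totals lowered the share of higher calls from 51% to 39.1% in RPF and from 62.9% to 44.1% in TE. The cause of these shifts was not tested. Deviations of same-numbered Pro and Sen libraries correlated across genes at -0.086 to 0.11 in mRNA and 0.017 to 0.019 in RPF. Those of Ribo-seq and RNA-seq of the same lysate, the block of the TE test, correlated at -0.039 to 0.054. No pairing by replicate number or by lysate was seen with this measure. Counting error weakens such correlations, above all in the shallow Ribo-seq libraries, so the measure cannot show that pairing was absent. A filter of 1 read ended the RPF call of COL1A2 (adjusted p = 0.308), and the block ended the RPF calls of COL1A2 (adjusted p = 0.185) and COL11A1 (0.580). Depth limits COL11A1 in RPF and every RPF value of Pro 1 and Sen 2.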

Other observations

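COL5A1 footprints in the 3′ UTR made up 3.57%, 0.174% and 0.570% of its mRNA-region footprints in replicates 1, 2 and 3 of Pro. The Sen shares were 2.02%, 33.8% and 2.89% in the same order. The groups overlapped through the shallow library Pro 1, where the share rested on 3 reads. The reads numbered 43, 22 and 16 in Sen 1, 2 and 3, against 1 and 8 in Pro 2 and 3. Over whole libraries the 3′ UTR share of mRNA-region footprints was 12.4%, 1.94% and 1.4% in Pro and 3.51%, 14.8% and 4.9% in Sen, so it was highest in the same libraries, Pro 1 and Sen 2. Its part in the COL5A1 values was not tested. In RNA-seq the 3′ UTR share of COL5A1 lay between 21.9% and 26.4% in all 6 libraries.

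COL4A1, a basement membrane chain outside the members, rose from 1181 to 2134 CPM in mRNA (0.85 ± 0.079, adjusted p = 3.98e-09), had an RPF change of 0.12 ± 0.186 that was not called (adjusted p = 0.619), and its TE fell by 0.71 on the log2 scale (SE 0.189, adjusted p = 0.0210). The TE call was not made in DESeq2 or under partial variance, neither of which called a gene of the matrix lists in TE. COL4A1 was named after its values were seen.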
